A study of Mus musculus and Homo sapiens with 30 samples.

Results

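The NRF2 arm of the oxidative defence was followed through 8 mouse genes, namely Nfe2l2, Keap1, Nqo1, Osgin1, Txnrd1, Txn1, Prdx1 and Srxn1, out of 56980 IDs in the mouse count table, and through 7 human counterparts out of 61552 IDs in the human table. The genes were taken by name in the mouse lines and by Ensembl ID in the human line, and OSGIN1 was not among the human genes. No measured value entered that rule, but the genes were chosen with earlier results of these data known. All of them passed the filter on low counts in every line. The human line was SkBr3, a breast cancer line, with 4 libraries per medium. The mouse lines were E0771, a mammary cancer line, and NMuMG, a mammary gland epithelial line that the labels also list under breast cancer, each with 3 libraries per medium. Every group shared the same scheme: cells grew for 36 h in DMEM with 10% FBS. For NMuMG alone the labels also list insulin at 10 mcg/ml and glucose at 4.5 g/L. The cells then spent 16 h in their standard medium (control) or in that medium mixed with 50% secretome of inguinal adipocytes. Secretome is the fluid in which fat cells had been kept, and it was either lean or obese. The labels do not state the species of the fat cells, and they do not say that replicates were separate cultures, so the p-values measure the spread between these libraries, which may be technical. Control medium held no secretome, so the comparison of lean with obese secretome is the one matched for the share of secretome.

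NRF2, the product of Nfe2l2, is a transcription factor that switches on genes of antioxidant and detoxifying proteins. In resting cells KEAP1 holds NRF2 and passes it to a ubiquitin ligase for degradation. Electrophiles and oxidants modify cysteines of KEAP1, NRF2 then builds up in the nucleus with a small MAF partner, and it binds antioxidant response elements near its target genes. The control therefore acts mainly on NRF2 protein, which RNA counts do not measure. Among the targets, NQO1 reduces quinones, thioredoxin reductase (Txnrd1) recharges thioredoxin (Txn1) with electrons from NADPH, thioredoxin recharges peroxiredoxin 1 (Prdx1), which removes peroxides, and sulfiredoxin (Srxn1) repairs peroxiredoxins that have been overoxidised. The series title ties an oxylipin of lean adipocytes to ferroptosis, a death caused by lipid peroxides.

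The mouse promoters were searched for the core of the antioxidant response element, TGACNNNGC, on both strands, in the RefSeq entries on GRCm38.p6, which span 250 bases before to 50 bases after a start. The 8 mouse genes had 10 entries, of which 3 were of Txnrd1. The core was in 4 of the 10 entries, each of a different gene, against 12.39% of all 32851 promoter entries. With the bases after the start left out, 3 of the 10 entries held it, against 10.16%. Those 3 are shown because their core lies before the start. Capitals mark the core on the strand printed, which is the strand of the gene.
Nfe2l2, chr2:75704870-75704913, minus strand: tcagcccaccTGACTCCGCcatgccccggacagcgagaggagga
Txnrd1, chr10:82859089-82859147, plus strand: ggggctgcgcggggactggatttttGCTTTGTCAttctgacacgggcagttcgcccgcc
Prdx1, chr4:116685441-116685499, plus strand: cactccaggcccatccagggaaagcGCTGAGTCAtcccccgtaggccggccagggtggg

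The Nfe2l2 core starts 240 bases before the start on the strand of the gene. In Txnrd1 it lies 92 bases before the start of 1 of the 3 entries of that gene, and in Prdx1 it lies 133 bases before the start, both on the opposite strand, where the sites read TGACAAAGC and TGACTCAGC. The Prdx1 site is also a match to TGANTCA, the core bound by AP-1 factors, which 7.81% of all entries hold; the other cores did not overlap a TGANTCA match. The fourth gene with a core was Srxn1, whose match TGACCTAGC begins 28 bases after the start. For Keap1, Nqo1, Txn1 and Osgin1 these letters are not in the window searched. A match is a description of the sequence and was not tested as a binding site.

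Library totals ran from 18479433 to 29195499 counts in SkBr3, from 22929035 to 31094119 in E0771 and from 23966897 to 29686456 in NMuMG. In NMuMG 7 of 7 epithelial markers were above 3 counts in every library, whereas in E0771 1 to 2 of 7 were in each medium. Of 6 mesenchymal markers, 5 were above 3 counts in every library of E0771, and 3 to 4 were in each medium of NMuMG. The epithelial markers summed to 229 to 259.7 CPM (counts scaled to library size) in E0771 and 6850 to 8134 in NMuMG. E0771 thus showed few of the epithelial markers listed, and both lines held mesenchymal ones. The mesenchymal markers of E0771 summed to 2308 to 2556 CPM with lean secretome, 3544 to 3884 with obese and 3993 to 4151 in control. Those of NMuMG summed to 1737 to 1958 CPM over all media. The part of either list in the results below was not tested. Of 7 adipocyte markers, 3 to 4 were at 0 in every library of a group, Lep was at 0 in all mouse libraries, Adipoq had at most 3 counts, and the whole list summed to between 0.373 and 2.19 CPM. Fabp4 was the 1 adipocyte marker above 3 counts in every E0771 library and Cidec the 1 in NMuMG, where Cidec was at 1.98 to 2.08 CPM with lean secretome, 0.290 to 0.973 with obese and 0.320 to 0.688 in control. In E0771, 3 endothelial markers summed to 2.11 to 2.97 CPM with lean secretome, 3.27 to 5.63 with obese and 3.51 to 4.50 in control. Those of NMuMG summed to 0.0672 to 0.371 CPM over all media. The 4 leukocyte markers summed in E0771 to 2.17 to 2.71 CPM with lean secretome, 1.59 to 2.09 with obese and 1.31 to 2.37 in control. Their sum in NMuMG was 3.385 to 4.05 CPM over all media. The part of these markers in the results was not tested either. Markers of SkBr3 were not checked, because no table of human gene names was used here. Libraries within a group differed more than counting error gives, by 1.97 to 15.0 in chi-square per degree of freedom. Obese replicate 1 stood nearest to the lean libraries on the first principal component in each line (-10.5 in E0771 against -20.5 and -16.0 for the other obese libraries, and -2.90 in NMuMG against -17.1 and -13.4), joined in SkBr3 by obese replicate 4, and lean replicate 3 of SkBr3 stood nearest to the obese ones. For lean over obese, the values of the genes followed are given with and without these libraries.

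The factor and its inhibitor hardly moved at the RNA level in the mouse lines. Nfe2l2 (ENSMUSG00000015839) in E0771 stood at 86.1, 93.4 and 83.8 CPM in control, at 94.7, 91.6 and 110.5 with lean secretome and at 89.5, 94.99 and 91.2 with obese. The highest value was lean replicate 3, and the lean and obese groups overlapped. On the log2 scale lean exceeded obese secretome by 0.11, which was not called (SE 0.0599, adjusted p = 0.14, edgeR quasi-likelihood test). Without lean replicate 3 this value was 0.0208 (adjusted p = 0.755), and without lean replicate 2 it was 0.16 and was called (adjusted p = 0.0343). In bulk libraries such as these, fewer cells of a kind and less RNA per cell cannot be told apart. Against control Nfe2l2 was called higher with lean secretome at a log2 fold change of 0.17 (adjusted p = 0.0185), although these groups overlapped too. That call was lost without E0771 control replicate 1 or 3 or without lean replicate 3, and the log2 fold change was 0.09 (adjusted p = 0.138) without the last.

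In NMuMG, Nfe2l2 RNA was higher than in E0771 to begin with, and it went the other way. Its level was 177, 175 and 178 CPM in control, 153, 157 and 168 with lean secretome and 162, 173 and 175 with obese. Every lean library lay below every control library, and the lean and obese groups overlapped. It fell with lean secretome against control by 0.15 on the log2 scale (SE 0.0377, adjusted p = 0.00201). Against obese secretome the log2 fold change of -0.09 was not called (adjusted p = 0.0637), and without obese replicate 1 it was -0.12 (adjusted p = 0.0184). Leaving out lean replicate 3 also gave a call, and the lowest adjusted p over the alternatives was 0.0115.

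Human NFE2L2 (ENSG00000116044) in SkBr3 was measured at 76.2, 74.8, 73.9 and 78.4 CPM in control, at 86.0, 86.4, 82.2 and 90.8 with lean secretome and at 74.9, 75.5, 80.7 and 76.8 with obese. All 4 lean libraries stood above all control and obese libraries. It rose by 0.17 over obese (SE 0.0413, adjusted p = 0.0023) and by 0.19 over control (adjusted p = 0.000692) on the log2 scale, a fold change of 1.12 and 1.14.

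Keap1 (ENSMUSG00000003308), the inhibitor, showed a small decrease in E0771. Its control libraries held 80.0, 82.2 and 80.1 CPM, the lean ones 73.1, 76.4 and 70.6 and the obese ones 83.0, 77.6 and 79.0. All 3 lean libraries were below the rest. It fell by 0.12 against obese (SE 0.0471, adjusted p = 0.0318) and by 0.14 against control (adjusted p = 0.015). The first of these calls was lost with no filter on low counts or without any 1 of lean replicates 1 and 3 and obese replicates 1 and 3, with adjusted p values up to 0.129, and the second without control replicate 2 or lean replicate 3, up to 0.0542. In NMuMG, Keap1 was at 83.3 to 91.9 CPM in control, 78.4 to 85.9 with lean and 80.3 to 87.6 with obese secretome. The 3 groups overlapped and no contrast was called. An antisense gene over Keap1, Gm16754, carried 2 to 27 counts in a library against at least 1827 for Keap1.

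KEAP1 (ENSG00000079999) in SkBr3 went up rather than down. The control libraries were at 60.3, 61.4, 65.8 and 57.8 CPM, the lean ones at 81.6, 79.9, 72.0 and 81.3 and the obese ones at 68.5, 58.3, 66.5 and 72.9. All lean libraries exceeded all control libraries, while lean replicate 3 fell under the highest obese library. It rose by 0.24 over obese (SE 0.0587, adjusted p = 0.0022) and by 0.36 over control (adjusted p = 4.09e-05). Without lean replicate 3 the rise over obese was 0.28.

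**Figure D1:**
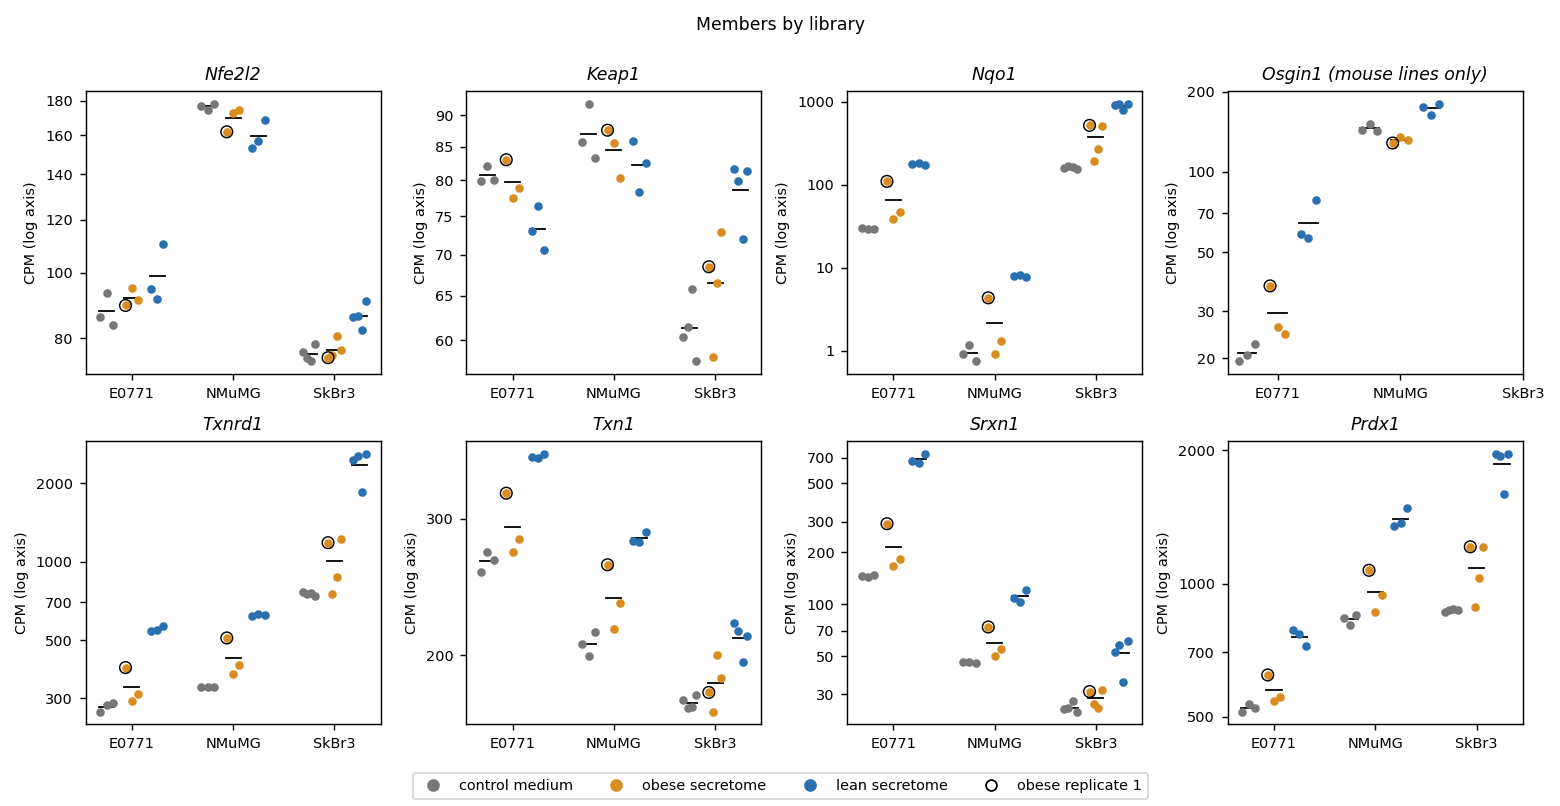
CPM of each gene (log axis) in every library of E0771, NMuMG and SkBr3; points are libraries coloured by medium, bars are group means, and open circles mark obese replicate 1. Mouse symbols head the panels, and SkBr3 points are the human counterpart. For Nqo1, Txnrd1, Srxn1 and Prdx1 every lean library lies above every control and obese library of its line, whereas Nfe2l2 and Keap1 move within a narrow band.

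The target genes rose in every line with lean secretome. Nqo1 (ENSMUSG00000003849), the quinone reductase, had the largest fold change over control of the genes followed in each line. In E0771 it was at 30.6, 29.3 and 29.8 CPM in control, at 179.5, 182 and 172 with lean secretome and at 110.0, 38.3 and 47.5 with obese. The control libraries were close together. The obese ones were spread over part of the gap between control and lean, with replicate 1 far above the others. It rose by 1.45 over obese on the log2 scale (SE 0.37, adjusted p = 0.0161) and by 2.58 over control (SE 0.40, adjusted p = 0.00156), a 5.96-fold difference. Without obese replicate 1 the first value was 2.05 (adjusted p = 1.34e-15). The call of lean over obese was lost without obese replicate 3 or when only those 2 groups were fitted, with adjusted p up to 0.0575.

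NMuMG held very little Nqo1 RNA: 0.907, 1.18 and 0.747 CPM in control, from 21 to 31 counts a library. With lean secretome it reached 8.02, 8.13 and 7.66 CPM, and with obese secretome 4.36, 0.911 and 1.33. Lean libraries agreed closely, and obese replicate 1 stood between them and the other obese libraries, which overlapped the controls. Lean over obese was 1.87 on the log2 scale (SE 0.459, adjusted p = 0.0204) and lean over control 3.07 (SE 0.52, adjusted p = 0.00377), or 8.40-fold. Leaving out obese replicate 1 moved the first value to 2.81 (adjusted p = 1.68e-15). Its call was lost without obese replicate 3, without any 1 of the lean replicates, or when only the 2 groups were fitted, with adjusted p up to 0.0663.

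Human NQO1 (ENSG00000181019) in SkBr3 was at 158, 168, 164 and 157 CPM in control. Lean secretome gave 924, 936, 789 and 951 CPM, and obese secretome gave 519, 193, 273 and 506. The 3 groups did not overlap, and the obese libraries split into a pair above 500 and a pair below 300 on either side of their mean. NQO1 rose by 1.27 over obese (SE 0.281, adjusted p = 0.00492) and by 2.48 over control (SE 0.295, adjusted p = 8.32e-05). Without obese replicate 1 the first value was 1.48, and without obese replicate 4 it was 1.46.

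Osgin1 (ENSMUSG00000074063), an oxidative stress induced growth inhibitor, rose with lean secretome from unlike levels in the mouse lines. E0771 had 19.4, 20.5 and 22.6 CPM in control, 58.4, 56.7 and 78.3 with lean secretome and 37.4, 26.3 and 24.7 with obese. All 3 groups were separate, and lean replicate 3 was the highest. It rose by 1.14 over obese (SE 0.198, adjusted p = 0.00276) and by 1.63 over control (adjusted p = 0.00049), a 3.10-fold change. NMuMG started much higher, at 143, 151 and 143 CPM in control, and went to 176, 164 and 181 with lean secretome and to 129, 136 and 132 with obese. There the obese libraries were the lowest and the lean ones the highest, with no overlap. Osgin1 rose by 0.39 over obese (SE 0.0387, adjusted p = 5.65e-10) and by 0.25 over control (adjusted p = 1.92e-06), and fell with obese secretome against control by 0.14 (adjusted p = 0.0245). That last call was lost without obese replicate 1 or 3 or without control replicate 1 or 2, with adjusted p up to 0.15.

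In the thioredoxin cycle the reductase moved more than thioredoxin itself. Txnrd1 (ENSMUSG00000020250) in E0771 was at 267, 283 and 287 CPM in control, 542, 548 and 565 with lean secretome and 393, 292 and 312 with obese. Lean libraries stood clear of the rest, and obese replicate 1 was the nearest to them. It rose by 0.73 over obese (SE 0.105, adjusted p = 0.000787) and by 0.98 over control (adjusted p = 0.000141), or 1.98-fold. In NMuMG the values were 333, 333 and 330.1 CPM in control, 622, 632 and 625 with lean and 511, 371 and 402 with obese secretome. Each group was apart from the others and the lean and control libraries were tightly grouped. Txnrd1 rose there by 0.55 over obese (SE 0.112, adjusted p = 0.00978) and by 0.92 over control (adjusted p = 0.000868). Eid3, a gene on the same strand that overlaps Txnrd1, had 3 to 48 counts in a library, against at least 6554 for Txnrd1.

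TXNRD1 (ENSG00000198431) in SkBr3 reached 2450, 2535, 1857 and 2598 CPM with lean secretome, against 767, 755, 757 and 739.7 in control and 1184, 751, 871 and 1219 with obese. Lean replicate 3 was the lowest of its group yet above every other library, and obese replicate 2 fell among the controls. It rose by 1.23 over obese (SE 0.165, adjusted p = 0.000253) and by 1.65 over control (adjusted p = 2.73e-05), a 3.13-fold change. Without lean replicate 3 the first value was 1.33.

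Thioredoxin RNA changed less. Txn1 (ENSMUSG00000028367) in E0771 had 256, 272 and 266 CPM in control, 361, 359.6 and 364 with lean secretome and 324, 272 and 282 with obese. All lean libraries were the highest, and obese replicate 1 was again nearest. The rise was 0.31 over obese (SE 0.0486, adjusted p = 1.87e-05) and 0.45 over control (adjusted p = 9.18e-08). NMuMG showed 207, 199.7 and 214 CPM in control, 281, 280.2 and 289 with lean and 262, 216 and 234 with obese secretome. None of these groups overlapped. The rise was 0.26 over obese (SE 0.053, adjusted p = 0.00156) and 0.45 over control (adjusted p = 7.82e-06). A processed copy of the gene, Txn-ps1, held 0 to 5 counts in a library.

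TXN (ENSG00000136810) in SkBr3 was at 175, 171, 171 and 178 CPM in control, 219.7, 215, 196 and 212 with lean secretome and 179, 169, 200.2 and 187 with obese. The lean and obese groups overlapped at lean replicate 3 and obese replicate 3. TXN rose by 0.20 over obese (SE 0.0449, adjusted p = 0.00117) and by 0.28 over control (adjusted p = 2.45e-05), and without lean replicate 3 the rise over obese was 0.23.

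Prdx1 (ENSMUSG00000028691), the peroxidase that thioredoxin recharges, rose in both mouse lines. E0771 had 514, 534 and 524 CPM in control, 784, 769.7 and 723 with lean secretome and 622, 544 and 555 with obese. The order was control, obese and lean with no overlap. Prdx1 rose by 0.40 over obese (SE 0.044, adjusted p = 7.12e-08) and by 0.53 over control (adjusted p = 7.25e-10). In NMuMG the levels were 838, 808 and 848 CPM in control, 1347, 1370 and 1479 with lean and 1071, 862 and 944 with obese secretome. The same order held without overlap. The rise was 0.54 over obese (SE 0.0805, adjusted p = 0.00185) and 0.75 over control (adjusted p = 0.00032).

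PRDX1 (ENSG00000117450) in SkBr3 went from 860.5, 870.2, 877 and 872.5 CPM in control to 1957, 1941, 1591 and 1963 with lean secretome, and was at 1210, 885, 1031 and 1209 with obese. Lean replicate 3 stood apart from its 3 close neighbours, and still exceeded every obese library. PRDX1 rose by 0.78 over obese (SE 0.102, adjusted p = 0.000165) and by 1.10 over control (adjusted p = 1.05e-05). Without lean replicate 3 the rise over obese was 0.85.

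Srxn1 (ENSMUSG00000032802), the enzyme that restores overoxidised peroxiredoxins, had the largest rise of lean over obese in E0771 of the 8 genes with all libraries in the fit. Without obese replicate 1 it stood at 1.98 and Nqo1 at 2.05. Srxn1 was at 146, 143 and 147 CPM in control, 673, 652 and 742 with lean secretome and 292, 165 and 183 with obese. The lean libraries were far from the others and obese replicate 1 was again the highest of its group. Srxn1 rose by 1.69 over obese (SE 0.213, adjusted p = 0.000597), a 3.23-fold change, and by 2.25 over control (adjusted p = 0.000141), a 4.74-fold change. In NMuMG it was at 46.1, 46.5 and 45.5 CPM in control, 108, 103 and 121 with lean and 73.7, 50.1 and 54.9 with obese secretome. The groups were again separate. The rise there was 0.90 over obese (SE 0.144, adjusted p = 0.00334) and 1.27 over control (adjusted p = 0.000606).

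SRXN1 (ENSG00000271303) in SkBr3 was at 24.6, 24.9, 27.5 and 23.9 CPM in control, 52.8, 58.0, 35.6 and 61.2 with lean secretome and 31.2, 26.3, 25.0 and 32.0 with obese. Lean replicate 3 lay nearer to the obese libraries than to its own group. SRXN1 rose by 0.87 over obese (SE 0.154, adjusted p = 0.00116) and by 1.05 over control (adjusted p = 0.000292), and without lean replicate 3 by 1.00 over obese.

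**Figure D2:**
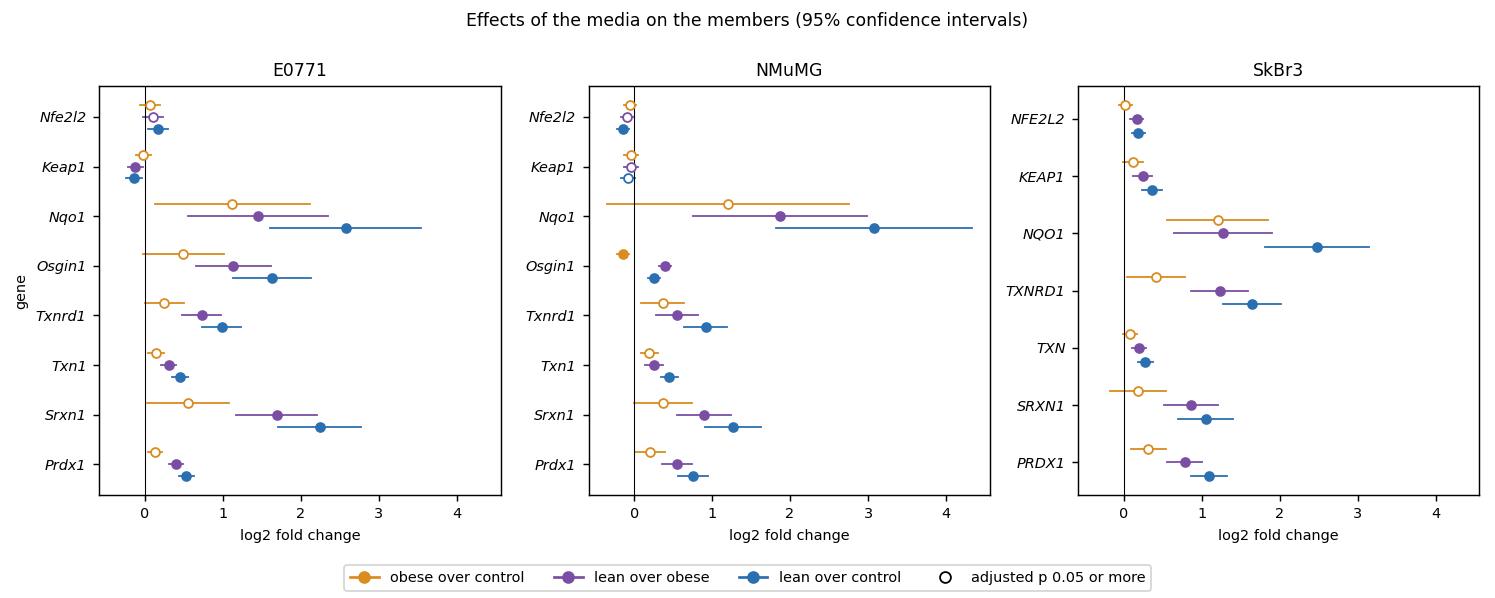
Log2 fold changes with 95% confidence intervals for obese over control, lean over obese and lean over control in E0771, NMuMG and SkBr3; filled points passed an adjusted p under 0.05. Lean secretome gave filled points to the right of 0 for Nqo1, Txnrd1, Txn1, Srxn1 and Prdx1 in every line, and the obese over control points are open except that of Osgin1 in NMuMG, which is left of 0.

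Counted over the members, RNA was higher with lean than with obese secretome for 7 of 7 genes in SkBr3, where 44.1% of all tested genes were called in either direction and 21.1% were called higher. For E0771 the count was 6 of 8 higher and 1 lower (Keap1), where 52.7% of all tested genes were called, 25.8% higher and 26.9% lower. NMuMG had 6 of 8 higher and none lower, against 35.0% called and 17.6% higher. The lean and obese libraries did not overlap for 5 of 7 members in SkBr3 (34.7% of all tested genes), for 7 of 8 in E0771 (60.1%) and for 6 of 8 in NMuMG (45.2%). The members had a median log2 fold change of 0.78 (SkBr3), 0.57 (E0771) and 0.47 (NMuMG), and the median of all tested genes was within 0.01 of 0 in each line. With so many genes called, a call alone sets no gene apart.

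The lean over obese values were also computed without the libraries that stood apart. Without obese replicate 1 of E0771 the log2 fold change was 1.98 for Srxn1, 1.34 for Osgin1, 0.86 for Txnrd1, 0.46 for Prdx1 and 0.38 for Txn1, each larger than with it and each called. Nfe2l2 was then at 0.08 and Keap1 at -0.10, neither called. Without obese replicate 1 of NMuMG it was 1.08 for Srxn1, 0.70 for Txnrd1, 0.63 for Prdx1 and 0.33 for Txn1, again larger, and 0.38 for Osgin1, all called. Keap1 was at -0.00885 and was not called. In SkBr3, leaving out obese replicate 1 or 4 gave 1.32 or 1.34 for TXNRD1, 0.91 or 0.93 for SRXN1, 0.84 in both cases for PRDX1, 0.26 or 0.29 for KEAP1, 0.19 or 0.21 for TXN and 0.16 or 0.17 for NFE2L2, all called. Without lean replicate 3, NQO1 was at 1.33 and NFE2L2 at 0.19, both called.

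Against control, lean secretome gave 7 of 7 higher in SkBr3, where 48.8% of tested genes were called and 23.7% were higher. E0771 had 7 of 8 higher and Keap1 lower, where 56.3% were called, 27.3% higher and 29.0% lower. NMuMG had 6 of 8 higher and Nfe2l2 lower, where 38.2% were called, 19.1% in each direction. This comparison shares its lean libraries with the one above, so its values stand beside the first and are not further evidence. The 6 targets rose in both mouse lines and their 5 human counterparts in SkBr3.

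Obese secretome against control gave no call in SkBr3 (0 of 7, with 1.16% of tested genes called) or E0771 (0 of 8, with 2.61% called) and 1 in NMuMG (Osgin1, lower, with 5.01% called and 2.66% lower). Unadjusted p values under 0.05 numbered 3 of 7 (SkBr3), 5 of 8 (E0771) and 5 of 8 (NMuMG), and DESeq2 called 1, 0 and 3 genes. In E0771 every obese library stood above every control library for all 6 targets, and 21.2% of tested genes had groups that did not overlap in that comparison. Nqo1 in E0771 had the log2 fold change 1.12 with a 95% interval from 0.13 to 2.12 (adjusted p = 0.268), and in SkBr3 NQO1 had 1.21 (0.56 to 1.85, adjusted p = 0.0909). In NMuMG, Txn1 came nearest, at 0.20 (adjusted p = 0.0502). Without E0771 obese replicate 1 the spread shrank with the change: Nqo1 was then called at 0.52 (adjusted p = 0.000247) and Srxn1 at 0.26 (adjusted p = 0.0139). Without NMuMG obese replicate 1 the log2 fold change of Txnrd1 was 0.22 and was called (adjusted p = 7.52e-05), and that of Nqo1 went from 1.20 to 0.26 and was not. In SkBr3, 2 members, NQO1 and PRDX1, were called without obese replicate 2.

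In the mouse lines obese replicate 1 was the highest obese library for most of these genes. In E0771 replicate 1 was the highest obese library for 7 of 8 members and for 6 of the 6 that rose with lean secretome, and in NMuMG for 6 of 8 and for 5 of the 6. Of all tested genes, replicate 1 was highest in 34.7% (E0771) and 35.9% (NMuMG), and of the genes higher with lean secretome in 52.2% and 57.4%. In SkBr3 no single library stood out. Obese replicates 1, 2, 3 and 4 were highest for 2, 0, 2 and 3 of 7 members. Over all tested genes they were highest in 24.9%, 25.6%, 26.4% and 23.1%. Of the genes higher with lean secretome they were highest in 39.7%, 18.6%, 11.8% and 29.9%. Replicates 1 and 4 both stood above replicates 2 and 3 for NQO1, KEAP1, TXNRD1, SRXN1 and PRDX1. For NFE2L2 and TXN replicate 3 was the highest. The labels give no batch that would set these libraries apart.

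The difference between the mouse lines was tested as an interaction in a fit of all 18 mouse libraries. For lean over obese 3 of 8 members were called, all with the higher value in E0771, where 34.2% of 16529 tested genes were called and 18.8% were higher in E0771. Srxn1 differed by 0.81 on the log2 scale (SE 0.262, adjusted p = 0.0291), Osgin1 by 0.76 (SE 0.193, adjusted p = 0.0077) and Nfe2l2 by 0.21 (SE 0.0759, adjusted p = 0.0284). Only Osgin1 held this call under every alternative run, with adjusted p up to 0.0254. The call of Nfe2l2 was lost without any 1 of 7 libraries (E0771 lean replicate 3 and obese replicates 1 and 3, NMuMG lean replicates 1 and 2 and obese replicates 2 and 3), with adjusted p up to 0.118. That of Srxn1 was lost with no filter on low counts and without any 1 of 6 libraries (E0771 lean replicate 3 and obese replicates 2 and 3, NMuMG lean replicates 1 and 2 and obese replicate 1), with adjusted p up to 0.0911.

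For lean over control the same 3 genes differed, where 34.5% of genes were called and 19.4% were higher in E0771, and each call held under every alternative run. Osgin1 differed by 1.41 (SE 0.199, adjusted p = 8.85e-05), Srxn1 by 1.00 (SE 0.266, adjusted p = 0.00973) and Nfe2l2 by 0.35 (SE 0.0759, adjusted p = 0.000546). The other 5 were not called. For lean over control the 95% interval of the difference was -0.25 to 0.44 for Txnrd1, -0.15 to 0.20 for Txn1, -0.40 to 0.02 for Prdx1 and -0.17 to 0.10 for Keap1. The difference in Prdx1, -0.19 (adjusted p = 0.16), was called with no filter on low counts (-0.20, adjusted p = 0.0177) and in DESeq2 (-0.20, adjusted p = 0.0477). For lean over obese it was -0.12 (adjusted p = 0.383) and was called without NMuMG obese replicate 1 (-0.21, adjusted p = 0.0176). Nqo1 could not be compared closely, since its interval ran from -2.57 to 1.62. For obese over control 0 of 8 were called, with 1.69% of genes called; 1, Osgin1, was at an unadjusted p under 0.05, and DESeq2 also called 0.

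**Figure D3:**
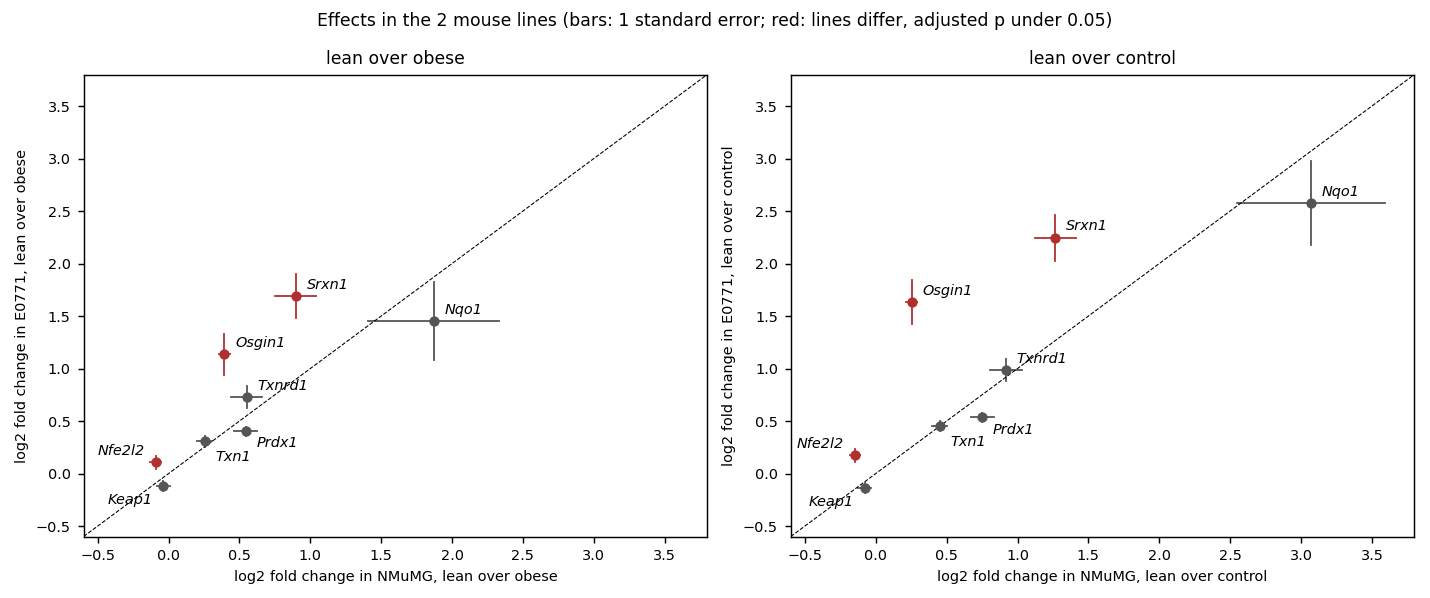
Log2 fold change in E0771 against that in NMuMG for lean over obese and for lean over control, with bars of 1 standard error and the line of equality; red marks genes whose effects differed between the lines. Nfe2l2, Srxn1 and Osgin1 lie above the line. Nqo1 lies below it, with the longest bars, and the other 4 lie nearer to it than Nqo1. Points come from the fit of each line alone and the red marks from the interaction.

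The lines also differed before any secretome was added. In the control libraries, on a scale common to both mouse lines, Nqo1 was at 28.5 ± 0.463 CPM in E0771 and 0.983 ± 0.231 in NMuMG (SD, n = 3), a log2 difference of 4.86 (SE 0.623, adjusted p = 7.29e-06). Srxn1 was at 139 ± 1.70 against 47.8 ± 0.585 CPM, and Txn1 at 252 ± 8.78 against 215 ± 7.35. The other 5 were lower in E0771. Osgin1 had 19.9 ± 1.61 against 151 ± 5.25 CPM, a log2 difference of -2.93 (SE 0.15, adjusted p = 3.15e-10). Nfe2l2 had 83.7 ± 5.04 against 183 ± 1.83 CPM, a log2 difference of -1.13 (adjusted p = 6.46e-18). All 8 were called, 3 higher and 5 lower in E0771, as were 80.5% of all tested genes (37.1% higher and 43.4% lower), so a call is no mark of these genes. The labels list insulin and a glucose level for the medium of NMuMG alone, and the effect of line and that of medium cannot be told apart.

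The difference between lines in Osgin1 with lean secretome was thus set on unlike starting levels. NMuMG with lean secretome, at 180.2 ± 8.87 CPM on the common scale, stayed above E0771 with lean secretome, at 62.6 ± 11.9. For Srxn1 the line that started higher also gained more, at 669 ± 47.4 CPM in E0771 against 115 ± 9.89 in NMuMG.

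Divided by the pooled length of all annotated exons of each gene, the levels gave an order within each line. That length covers every annotated transcript of a gene (1051 bases for Txn1, 3043 for Prdx1 and 7086 for Txnrd1). The transcripts expressed may be shorter, and the order was not tested with their lengths. In E0771 control libraries Txn1 was first at 252 ± 7.36 CPM per kilobase (SD, n = 3), then Prdx1 at 172 ± 3.20, Srxn1 at 51.5 ± 0.663, Txnrd1 at 39.4 ± 1.52, Nfe2l2 at 23.1 ± 1.32, Nqo1 at 19.2 ± 0.420, Keap1 at 17.2 ± 0.267 and Osgin1 at 7.80 ± 0.602. No neighbours in that order overlapped. With lean secretome Srxn1 at 244 ± 16.6 overlapped Prdx1 at 249 ± 10.5, and Nqo1 at 115 ± 3.35 passed Txnrd1 at 77.9 ± 1.68. In NMuMG controls Prdx1 led at 273 ± 6.95, Txn1 followed at 197 ± 6.90, and Osgin1 came next at 54.5 ± 1.83, ahead of Txnrd1 at 46.8 ± 0.216 and Nfe2l2 at 46.5 ± 0.506, which overlapped. Nqo1 was last there in all 3 media, at 5.11 ± 0.158 with lean secretome.

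The other genes of the pathway in the mouse lines were described in 3 lists. Among 16 partners and regulators of NRF2, 6 of 15 tested were higher with lean than with obese secretome in E0771 and 2 were lower. Of all tested genes there, 52.7% were called, 25.8% higher and 26.9% lower. The median log2 fold change of the list was 0.02. In NMuMG 6 of 16 were higher and 3 lower, with a median of 0.08, where 35.0% of all genes were called and 17.6% were higher. The small MAF partners Maff and Mafk rose by 1.30 (SE 0.147, adjusted p = 7.54e-08) and 0.75 (SE 0.0737) in E0771, and Sqstm1, which encodes p62, a protein that draws KEAP1 into autophagy, by 1.05 (SE 0.123). Rbx1, a part of the ligase that KEAP1 serves, fell by 0.28, and the related factor Nfe2l1 fell by 0.23. In NMuMG Mafk rose by 0.57 (SE 0.0581), Sqstm1 by 0.45 and Syvn1, a ubiquitin ligase of the endoplasmic reticulum, by 0.27. Cul3, the scaffold of that KEAP1 ligase, fell by 0.22 (SE 0.0369), the kinase gene Gsk3a by 0.14 and Rbx1 by 0.12. The Rbx1 groups overlapped, and its call was lost in DESeq2 and without any 1 of NMuMG lean replicates 1 to 3 and obese replicates 1 and 3, with adjusted p up to 0.196. Cul3 rose in E0771, by 0.29, and its effect differed between the lines by 0.53 (adjusted p = 6.22e-10).

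The wider thioredoxin, peroxiredoxin and glutaredoxin genes went in both directions. In E0771 7 of 20 were higher and 6 lower, with a median of -0.03, where 52.7% of all tested genes were called. In NMuMG 7 of 22 were higher and 5 lower, with a median of 0.02, where 35.0% were called. E0771 raised Prdx6, a peroxiredoxin that reduces phospholipid peroxides, by 1.19 (SE 0.0653, adjusted p = 7.9e-09), Txnrd3 by 0.74 and mitochondrial Txn2 by 0.36. It lowered Sesn2, a stress-induced sestrin, by 0.96 (SE 0.0698, adjusted p = 6.19e-11), mitochondrial Txnrd2 by 0.65 and the methionine sulfoxide reductase gene Msra by 0.50. In NMuMG Txnrd3 rose by 0.37, Prdx6 by 0.35 (SE 0.0432) and Msrb3 by 0.25. Txnip, whose product binds and inhibits thioredoxin, fell there by 0.67 (SE 0.0699, adjusted p = 4.1e-08), Sesn1 by 0.39 and Prdx4 by 0.36. The call of Sesn1 was lost without NMuMG lean replicate 3 (adjusted p = 0.128). Txnip and Sesn2 changed in opposite directions in the lines: Txnip rose by 0.27 in E0771 and differed by 0.95 between the lines (adjusted p = 1.53e-06), and Sesn2 rose by 0.25 in NMuMG and differed by -1.19 (adjusted p = 7.86e-14).

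Other genes known as NRF2 targets moved more evenly. In E0771 17 of 23 were higher with lean than with obese secretome and 4 were lower, with a median log2 fold change of 0.66, and in NMuMG 22 of 24 were higher and 1 lower, with a median of 0.58. All tested genes had medians within 0.01 of 0. Of them 52.7% were called in E0771, 25.8% higher and 26.9% lower, and 35.0% were called in NMuMG, 17.6% higher. E0771 gave the largest rises for Hmox1, the haem oxygenase, by 3.30 (SE 0.375, adjusted p = 0.000355), Gclm, a subunit of the enzyme that starts glutathione synthesis, by 1.43, and the exporter Abcc4 by 1.09. Hmox1 went from 82.6 to 94.1 CPM in control and 112 to 253 with obese secretome to 1339 to 2232 with lean. The largest falls there were Cbr4 by 0.56, Ugdh by 0.47 and the second quinone reductase Nqo2 by 0.38. NMuMG gave the largest rises for Blvrb, a biliverdin reductase, by 2.61 (SE 0.178, adjusted p = 3.8e-06), the carbonyl reductase Cbr3 by 1.99, and Slc7a11, the cystine transporter that feeds glutathione synthesis, by 1.85. Nqo2 was again lower, by 0.22 (SE 0.0491, adjusted p = 0.00067), so the 2 quinone reductases moved apart in both lines.

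Some of these targets differed between the lines. The effect on Hmox1 was larger in E0771 by 1.86 (adjusted p = 0.00314) and that on Gclm by 0.97 (adjusted p = 0.000621). That on Blvrb was larger in NMuMG, by -1.88 as E0771 minus NMuMG (adjusted p = 0.000275), and that on Ugdh too (-0.93, adjusted p = 1.08e-06). Of the 24 targets, 4 had a more positive effect in E0771 and 6 in NMuMG, where 34.2% of all tested genes were called in this interaction. For obese over control 3 of 23 targets rose in E0771 (Ftl1 by 0.53, Me1 by 0.29 and Taldo1 by 0.19), where 2.61% of all tested genes were called. Without obese replicate 1, 2 or 3 the count was 4, 7 or 1. None of 24 was called in NMuMG, where 5.01% of all genes were, 12 had an unadjusted p under 0.05 and DESeq2 called 8. Without NMuMG obese replicate 1 there were 7 higher and 1 lower, without replicate 2 there were 5 higher, and without replicate 3 there was 1. None of 15 regulators and none of 20 thioredoxin genes was called for obese over control in E0771, with 2 and 0 at an unadjusted p under 0.05 and 1 and 0 in DESeq2. In NMuMG 1 of 16 regulators (Mafg) and 3 of 22 thioredoxin genes were called (Prdx6 higher by 0.18, Sesn3 and Txnip lower by 0.30 and 0.22 on the log2 scale), against 5.01% of all genes. The call of Mafg was lost without NMuMG obese replicate 1 or 2 and that of Prdx6 without obese replicate 1 or 3. Without replicate 1 a single thioredoxin gene was called, lower.

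**Figure D4:**
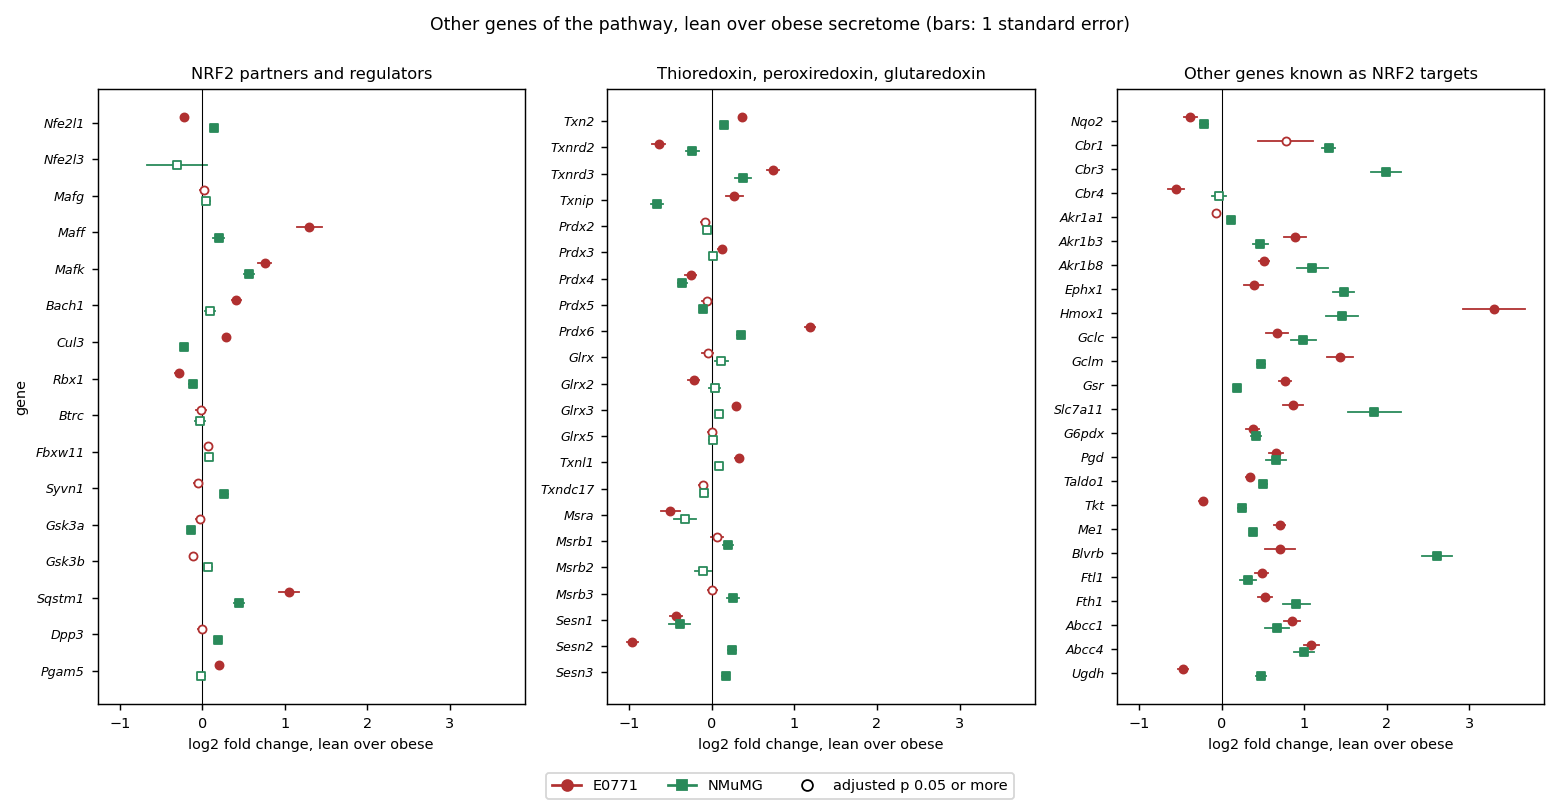
Log2 fold change of lean over obese secretome, with bars of 1 standard error, for the 3 lists of other pathway genes in E0771 (circles) and NMuMG (squares); open symbols were not called. In the target list 17 of 23 genes in E0771 and 22 of 24 in NMuMG are filled to the right of 0. Of all tested genes 25.8% in E0771 and 17.6% in NMuMG were called higher. The other lists scatter on both sides.

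The genes whose RNA was most like that of 3 members over the 18 mouse libraries were found by Pearson's r of log2 CPM after the mean of each line was removed, among 9287 or 9288 genes expressed in both lines. The libraries fall into 3 media per line, so r mostly reflects the step between media, and it is a description. Nqo1 was most like Pir (0.986), Gclc (0.978), Gstp1 (0.977), Esd (0.975) and Fth1 (0.974), with Txnrd1 next (0.973). Txnrd1 was most like Esd (0.994), Txn1 (0.989), Abcc4 (0.986), F3 (0.984) and Sec24d (0.982). Srxn1 was most like Hmox1 (0.995), Slc2a1 (0.992), Zwint (0.990), Alas1 (0.988) and Sec24d (0.988). Nfe2l2 itself had an r of -0.11 with Nqo1, 0.03 with Txnrd1 and 0.21 with Srxn1, and Keap1 had -0.46, -0.60 and -0.63. In SkBr3, over 12 libraries, PRDX1 was the gene most like TXNRD1 of 10600 (0.998). There NFE2L2 had an r of 0.78 with NQO1, 0.87 with TXNRD1 and 0.87 with SRXN1, and KEAP1 had 0.94, 0.94 and 0.93.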

How the data were processed

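The authors deposited raw counts of reads per Ensembl gene ID, in 1 human and 1 mouse table. The submitters' processing notes name cutadapt 1.16, STAR 2.7.9a, featureCounts 1.6.3 and GRCm39; the build of the human table, the annotation release and the strand setting are not given in the sources used here. Poly(A) RNA was sequenced with a directional kit and paired 150 bp reads, per the labels' protocols. GENCODE M21 gave symbols for 52073 of 56980 mouse IDs, with 99.68% of the counts.

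Each line was fitted alone with its 3 media in edgeR 4.0.16 (R 4.3.3; filterByExpr, TMM, robust quasi-likelihood F test, two-sided), and p-values were adjusted by Benjamini-Hochberg over all 14874 (SkBr3), 13813 (E0771) or 15014 (NMuMG) genes tested. Calls needed an adjusted p below 0.05. Interactions and control levels of the mouse lines came from 1 fit of 18 libraries (16529 genes). CPM used TMM factors, and log2 CPM a prior count of 2. For lean over obese the median SE on the log2 scale was 0.0759 (SkBr3), 0.072 (E0771) and 0.0708 (NMuMG). Reads carry no molecular identifiers, so precision covers counting error and library spread.

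Alternatives were DESeq2 1.42.0, its size factors, no filter, only the groups compared, plain library totals, a replicate block and leaving out each library. The members and the 3 lists were chosen with earlier results of these data known. The text names all members and, per list and line, up to 3 called genes with the largest rise and fall of lean over obese, and for likeness the 5 highest r for 3 members; other list genes were named after their values were seen.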

Additional observations from a re-analysis of the deposited data

Results flagged for a closer look

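In SkBr3 with lean secretome, replicate 3 was far below the other 3 libraries for NQO1, at 789 CPM (its gap was 0.836 of the range of the group), and for PRDX1, at 1591 CPM (0.941), past Dixon's 95% critical value for 4 samples. These were 2 of 21 groups tested, and chance alone marks about 1 in 20 of independent tests. Both marks fell on the same library, so they are not independent of each other. That library also stood apart on the first principal component, at 17.6 against 29.7, 35.9 and 40.8 for the other lean libraries of SkBr3. For 3 of 8 members the lean effect was called different between E0771 and NMuMG, near the share of all tested genes called. That share was 34.2% for lean over obese and 34.5% for lean over control. For lean over obese, as E0771 minus NMuMG, Nfe2l2 differed by 0.21 (adjusted p = 0.0284), Srxn1 by 0.81 (adjusted p = 0.0291) and Osgin1 by 0.76 (adjusted p = 0.0077), all in edgeR. For lean over control, Nfe2l2 differed by 0.35, Srxn1 by 1.00 and Osgin1 by 1.41. For lean over obese the calls of Nfe2l2 and Srxn1 each held in 9 of 16 alternatives. Both comparisons use the same lean libraries.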

How the results depend on the processing

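Of 2037 values recomputed under 38 settings, the lean effects of the 6 targets kept their direction throughout. The numbers of genes called for obese over control moved most: in SkBr3 from 172 to 539 with no filter on low counts, 384 in DESeq2 and 849 when only those 2 groups were fitted, in E0771 from 360 to 626 with no filter, and in the interaction from 279 to 428 with no filter and 422 in DESeq2. Members called for obese over control went from 0 to 1 in SkBr3 with DESeq2, from 0 to 2 in E0771 with no filter, and in NMuMG from 1 to 2 with size factors or no filter and 3 in DESeq2. With 1 library left out, genes called for obese over control ranged from 20 to 374 (SkBr3), 79 to 498 (E0771), 384 to 893 (NMuMG) and 149 to 360 (interaction), and members from 0 to 2, 0 to 2 and 0 to 3 in the lines. Members called in the interaction of lean over obese ranged from 1 to 3. The cause was not tested. Same-numbered libraries of different media had correlated deviations of -0.0452 to 0.0523 (SkBr3), -0.0942 to 0.11 (E0771) and -0.0285 to 0.025 (NMuMG). Within these lines 1 of 12, 5 of 9 and 4 of 9 libraries correlated best with their own number. Each line was checked alone, and these values do not settle whether the numbers pair the samples. With the replicate block 2 members in place of 1 were called for obese over control in NMuMG, and no other count of members changed. Directions that turned were all of values that were not called, with 1 library left out. With each library left out, the log2 change of obese over control ranged from -0.000802 to 0.0377 for NFE2L2 in SkBr3 and from -0.0456 to 0.0167 for Keap1 in E0771. In the interaction for obese over control the ranges were -0.66 to 0.87 for Nqo1, -0.10 to 0.37 for Srxn1, -0.12 to 0.0338 for Txn1, -0.24 to 0.0416 for Txnrd1, -0.14 to 0.0199 for Prdx1 and -0.00691 to 0.0652 for Keap1. For lean over obese they were -1.34 to 0.19 for Nqo1 and -0.00756 to 0.15 for Txn1, and for lean over control -0.00232 to 0.0504 for Txn1. Depth limits Nqo1 in NMuMG, with 21 to 31 counts in a control library.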
